A study of Mus musculus with 9 samples.

Results

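Within single-cell libraries prepared from mouse brain tissue, 699 cells gave a large share of their transcripts to Pomc, the gene of proopiomelanocortin. They were taken from the count table by 3 limits on each cell's own transcripts: Pomc at 10% or more, prolactin (Prl) under 10% and growth hormone (Gh) under 50%. They lie in libraries 4, 5 and 6 in the order of the table, with 372, 18 and 309 cells, and make up 699 of the 10113 cells of these libraries and of 29571 cells in the whole series. Each captured transcript bears its own short tag, a unique molecular identifier (UMI), and UMIs rather than PCR copies are what is counted. Since the limits used Pomc, Prl and Gh, the levels of these genes describe the cells and are no finding, and all other levels are CPM, UMI counts scaled to a common total, with those 3 genes left out of the total.

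The study asked how gene expression in single brain cells changes with sleep. Cortex, hypothalamus and brainstem of C57BL/6 mice of 9 to 11 weeks were collected at ZT12, that is 12 h after lights on, from 3 groups: mice left to sleep (NS), mice deprived of sleep for 12 h (SD) in an automated chamber, and mice allowed recovery sleep after deprivation (RS), whose length the labels give differently in different places. The mice were wild type, and every region of a group was sequenced as 1 library from 3 pooled mice. The library codes in the table are not explained in the labels, so libraries 4 to 6 are described here without a region or sleep group, no comparison between sleep groups was made, and differences between these libraries have no replicate check.

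Pomc encodes a precursor that prohormone convertases cut into smaller peptides. In the corticotrophs of the anterior pituitary, convertase 1/3 releases adrenocorticotropic hormone, which drives glucocorticoid secretion by the adrenal gland and is held back by glucocorticoids through their receptor, while in the melanotrophs of the intermediate lobe convertase 2 (Pcsk2) cuts on to alpha-melanocyte-stimulating hormone and beta-endorphin. The T-box factor Tbx19 activates Pomc in both cell types, Pax7 selects the melanotroph fate, and some neurons of the arcuate nucleus in the hypothalamus also make Pomc. None of the labelled tissues is the pituitary, which lies below the hypothalamus.

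The genes that define the cells and separate them into groups are Pomc and Pcsk2, and the 250 bases before the RefSeq start of each are shown because their letters differ in kind. On GRCm38.p6, Pomc lies on the plus strand at chr12:3954945-3960643 and Pcsk2 on the plus strand at chr2:143546133-143816284. The windows printed are chr12:3954695-3954944 and chr2:143545883-143546132, 5′ to 3′, with matches to searched letters in capitals.
Pomc: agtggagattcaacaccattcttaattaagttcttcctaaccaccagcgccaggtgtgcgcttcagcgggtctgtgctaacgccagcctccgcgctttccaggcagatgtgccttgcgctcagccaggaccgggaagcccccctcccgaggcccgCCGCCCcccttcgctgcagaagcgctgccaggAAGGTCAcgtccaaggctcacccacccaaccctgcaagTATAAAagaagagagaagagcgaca
Pcsk2: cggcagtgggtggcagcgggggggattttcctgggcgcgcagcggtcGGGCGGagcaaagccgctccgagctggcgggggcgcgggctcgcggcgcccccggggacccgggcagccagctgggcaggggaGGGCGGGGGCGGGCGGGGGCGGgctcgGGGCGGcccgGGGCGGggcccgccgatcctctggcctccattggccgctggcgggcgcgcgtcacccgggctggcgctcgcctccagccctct
In the Pomc window, the capitals mark, from left to right, a GC box read on the other strand (GGGCGG, here as CCGCCC, 95 to 90 bases before the start), a nuclear receptor site (AAGGTCA, 63 to 57 bases before) and a TATA box (TATAAA, 25 to 20 bases before). In the Pcsk2 window they mark 7 matches to GGGCGG, some of which overlap one another, and TATAAA was not found on either strand. GC content was 60% in the Pomc window and 82.4% in the Pcsk2 window. Of 32851 RefSeq promoter windows searched on both strands, 12.4% held TATAAA, 4.08% held AAGGTCA and 32.7% held GGGCGG. The T-box letters TCACACC and the homeobox letters TAAGCC and TAATCC were not found in these windows and were in 3.33%, 8.20% and 6.25% of all. A match is a description of letters and shows no binding. Only the 250 bases before each start were searched, so letters not found here may lie further away.

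Pomc-high cells made up 10.7% of library 4 (95% exact binomial interval 9.65 to 11.7%), 0.665% of library 5 (0.395 to 1.05%) and 7.89% of library 6 (7.07 to 8.78%). All intervals given here cover counting error only. The 3 libraries held 3965301, 2121900 and 5488950 UMIs. Set against the cells in which Gh took at least 50% of UMIs, the growth hormone cells or somatotrophs, there were 40.5 Pomc-high cells per 100 in library 4, 2.73 in library 5 and 19.6 in library 6. Gh-dominant cells themselves numbered 919, 660 and 1574, so library 5 held many pituitary cells and few with high Pomc. In the Pomc-high cells the median share of Pomc was 21.6%, 19.5% and 29.4% of a cell's UMIs, with single cells up to 59.5%, 29.8% and 70.0%. Cells lay on both sides of the limit without a gap: the lowest cell inside was at 10.0%, 10.9% and 10.1%, the highest outside at 9.84%, 9.88% and 9.90%, and 79, 19 and 63 cells lay between 5% and 10%, with 34, 4 and 16 within 1 percentage point of the limit on either side. A single cell, of library 6, passed the Pomc limit and was kept out by Prl, and 0 were kept out by Gh. The median Pomc-high cell held 764.5, 943 and 901 UMIs in libraries 4, 5 and 6. No cell barcode was shared by Pomc-high cells of different libraries, and 7 of them shared a barcode with another kind of cell in another library.

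**Figure D1:**
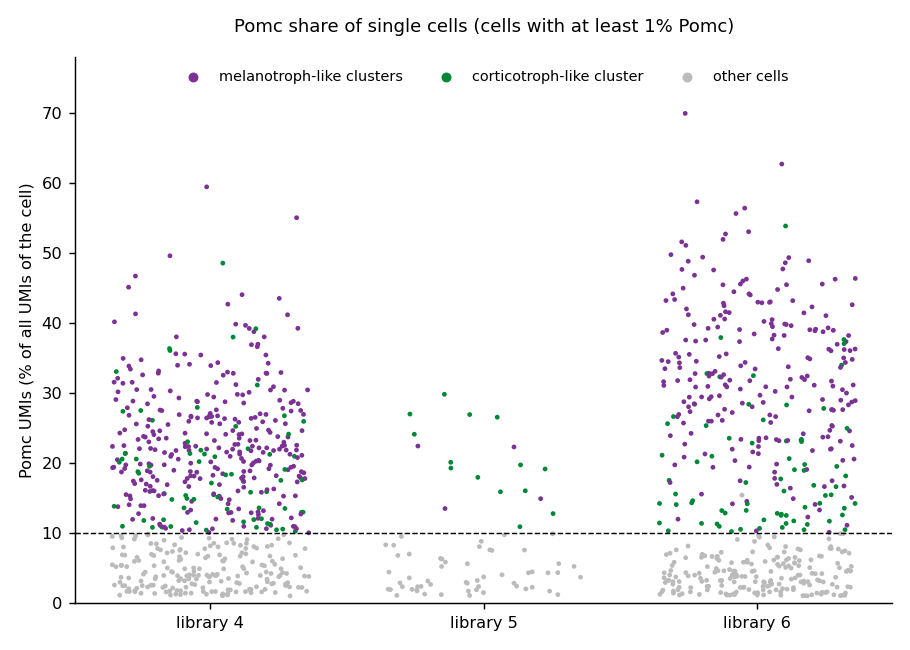
Share of each cell's UMIs taken by Pomc, in percent, for cells of libraries 4, 5 and 6 with at least 1% Pomc, 1 point per cell spread sideways at random. Points above the dashed limit at 10% are the Pomc-high cells, in the colours of the melanotroph-like and corticotroph-like clusters described further on, and grey points are other cells; the highest cells reach 59.5%, 29.8% and 70.0%.

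The name of a corticotroph or melanotroph was checked against marker lists. Pcsk2, the convertase of melanotrophs, was at 2083 CPM in library 4, 0 CPM in library 5 and 3965 CPM in library 6, where the other cells of the same libraries had 99.5, 108 and 128 CPM. In libraries 4 and 6 this was 20.9-fold (18.0 to 24.4) and 31.0-fold (27.6 to 34.9) above the other cells. Oacyl, an acyltransferase-like gene named with these cells, was at 400 and 515 CPM in libraries 4 and 6 and at 0 in library 5. Pax7 was at 150 CPM in library 4, 149 CPM in library 6 and 0 CPM in library 5. So the 3 melanotroph genes were high in the Pomc-high cells of libraries 4 and 6, and none gave a UMI in the 18 cells of library 5. A count of 0 among the 13903 UMIs without hormone genes in those cells allows up to 3 counts, or 216 CPM, which is above the level of Pcsk2 in the other cells but far below its level in the Pomc-high cells of libraries 4 and 6. Oacyl in those libraries was above this limit too, whereas Pax7 was under it, so a lower Pax7 level in library 5 was not detectable at this depth. Drd2, the dopamine receptor of melanotrophs, gave no UMI in any Pomc-high cell, which by the same limit of 3 counts allows a share of up to 0.429% of them with a UMI and does not limit the share that expresses it.

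Tbx19, the factor common to both Pomc cell types, was high in each library, at 158, 575 and 67.8 CPM in libraries 4, 5 and 6 against 17.4, 6.05 and 20.6 CPM in the other cells. The folds were 9.06 (5.74 to 14.2), 95.1 (31.9 to 278) and 3.30 (1.75 to 5.84). Of the corticotroph genes, the CRH receptor Crhr1 was at 28.3, 0 and 13.6 CPM, on 7, 0 and 3 UMIs. The vasopressin receptor Avpr1b was at 12.1, 71.9 and 13.6 CPM, on 3, 1 and 3 UMIs. The glucocorticoid receptor Nr3c1 was at 68.8, 144 and 63.3 CPM, close to the other cells with 106, 80.6 and 89.3 CPM. The receptors of corticotrophs were thus near the detection limit, and 1 UMI in library 5 already stands for 71.9 CPM. The label of melanotrophs is met by the summed levels of libraries 4 and 6 and not by each cell, since 233 of 372 and 228 of 309 cells there held a UMI of Pcsk2, Oacyl or Pax7, while the library 5 cells gave no UMI of the 3 melanotroph genes, which limits Pcsk2 and Oacyl but not Pax7 to less than the levels of libraries 4 and 6, and Tbx19 does not tell the 2 cell types apart. The genes higher in a group of corticotroph-like cells are given further on. Of the arcuate Pomc neuron list, 10 genes were in the table, and together they gave 26, 2 and 25 UMIs, or 105, 144 and 113 CPM, with 5, 8 and 3 of the 10 at 0. The other cells had 392, 513 and 199 CPM of the list and Gh-dominant cells 74.5, 101 and 51.4 CPM. Lepr, Nhlh2 and Nkx2-1 gave no UMI, Tbx3 and Htr2c gave 1 each, in library 6, and Cartpt gave 7, 1 and 2. The remaining UMIs came from genes that neurons share widely: Tubb3 with 7, 0 and 4, Stmn2 with 4, 0 and 9, Gad2 with 3, 0 and 7 and Slc17a6 with 5, 1 and 1.

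Against all other cells of their own library, 3524 genes could be compared, those with at least 50 CPM on either side. A gene was counted as past the fold where log2 of (CPM + 10) differed by at least 1, that is 2-fold, in the same direction in libraries 4, 5 and 6. There were 36 such genes higher in Pomc-high cells (1.02% of those compared) and 201 lower (5.70%). Without library 5, 80 genes were higher (2.29% of 3494) and 233 lower (6.67%), the addition including Pcsk2, Oacyl, Pax7 and the vesicle genes Syt1 and Cplx2, and without library 6, 41 were higher and 339 lower. The counts also moved with other settings: 21 genes were higher with Pomc at 20% or more, 128 with free RNA subtracted, and 593 were lower with a minimum of 10 CPM. Tbx19, the cAMP-responsive modulator Crem, the nuclear receptor Nr4a2 and the neuropeptide Nmb (neuromedin B) were the genes of the fixed lists that were higher in each of the 3 libraries. From the same lists as Crem and Nmb, the immediate early genes Fosb, Jun and Atf3 and the neuropeptide Avp (vasopressin) were lower in each. Avp was at 64.7, 0 and 40.7 CPM against 274, 1383 and 359 CPM, and Jun gave 9, 2 and 21 UMIs against 716, 673 and 1707 in the far more numerous other cells. Tsc22d3 of the glucocorticoid targets and Tubb3 of the neuron list were lower too, and the other genes on the lower side belong to the marker lists of other cells. Crem was at 275, 719 and 330 CPM against 71.6, 61.8 and 92.4 CPM. Nmb was at 174, 1582 and 226 CPM against 28.6, 28.2 and 51.9 CPM, a ratio of 6.07 (4.07 to 8.96), 56.1 (31.9 to 96.1) and 4.36 (3.11 to 6.01). Its UMIs were unevenly spread: the highest 3 cells held 53.5%, 63.6% and 60.0% of them, and in libraries 4 and 6 the corticotroph-like minority held 41 of 43 and 42 of 50, with the melanotroph-like cells at 11.2 and 51.1 CPM, not above the other cells. Nr4a2 rested on 1 UMI in library 5 and on 46 and 24 in libraries 4 and 6.

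Outside the lists, Resp18, which encodes a protein of neuroendocrine secretory granules, was among the 25 leading genes. It stood at 2249, 3812 and 3079 CPM against 880, 833 and 870 CPM in the other cells. Emd, which encodes emerin of the nuclear envelope, was at 522, 1151 and 561 CPM against 141, 110 and 164 CPM. Also among the 25 were Cidea, a lipid droplet protein, at 396, 1151 and 470 CPM against 127, 57.8 and 135 CPM, and Srxn1, sulfiredoxin, at 344, 863 and 389 CPM against 116, 76.6 and 122 CPM. In libraries 4 and 6 the levels of Emd, Cidea and Srxn1 belonged to a minority, the corticotroph-like cells described further on: these held 75 of 85 and 84 of 86 Srxn1 UMIs, and the melanotroph-like majority was below the other cells in all 3 genes, with Emd at 89.6 and 57.5 CPM and Cidea at 67.2 and 83.1 CPM. Resp18, by contrast, was at 2000 and 2856 CPM in the majority. Pde10a, a cyclic nucleotide phosphodiesterase, was at 659, 360 and 398 CPM against 183, 81.3 and 149 CPM. The others included Cryba2, Aloxe3, Ccdc109b (the mitochondrial calcium uniporter subunit), Cst6, Obsl1, C2cd4b, Srrm4, Chst8, Smpd3, Necab2, Amph, Dusp14 and Dusp2. The 10 leading genes on the lower side included gonadotroph hormone genes. Fshb, which led them, was at 12.1, 0 and 13.6 CPM against 873, 420 and 763 CPM. Lhb was at 129, 144 and 244 CPM against 5969, 2617 and 5303 CPM, 46.1-fold, 18.2-fold and 21.7-fold lower. In library 6, 19 of its 54 UMIs came from 1 cell, and without the highest 3 cells it was at 137 CPM there. The 2 Lhb UMIs of library 5 came from 1 cell. Cck gave no UMI in the Pomc-high cells, and the other cells had 204, 290 and 134 CPM. Gonadotrophs are among the other cells, so these ratios depend on what else each library held.

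Gh-dominant cells, the most numerous pituitary cells set by the same kind of limit, gave a comparison that the brain cells do not enter. Of 3601 genes, 60 were higher in Pomc-high cells in each library (1.67%) and 201 lower (5.58%); without library 6, 95 were higher and 359 lower, and without library 5, 156 and 284. Subtracting free RNA gave 167 higher, and a minimum of 10 CPM 413 lower. Tbx19, the granule protein Scg2, Crem and Nmb were the list genes on the higher side. Scg2 was at 1120, 1295 and 1501 CPM against 371, 262 and 379 CPM, 3.02-fold (2.50 to 3.66), 4.95-fold (2.77 to 8.40) and 3.96-fold (3.38 to 4.64) higher. Ly6h was at 1606, 2374 and 1130 CPM against 135, 179 and 100 CPM. Id2, an inhibitor of helix-loop-helix factors, was at 174, 503 and 176 CPM against 20.1, 18.7 and 14.7 CPM. Without library 5, all 4 melanotroph genes that could be compared were higher, beside 4.31% of 3618 genes higher and 7.85% lower. Their whole list summed to only 48.3 and 85.6 CPM in Gh-dominant cells of libraries 4 and 6. Its genes thus passed the minimum of 50 CPM mainly through the Pomc-high cells, and the count carries no test. The granule protein chromogranin A, Chga, was also higher, at 837 and 1058 CPM in libraries 4 and 6 against 109 and 127 CPM.
On the lower side were all 4 somatotroph genes compared. Of these, Pou1f1 and Ghrhr passed the minimum of 50 CPM only through the Gh-dominant cells, a class chosen by its Gh, and the count carries no test. Pou1f1, the Pit-1 factor of somatotrophs, lactotrophs and thyrotrophs, was at 4.05, 0 and 22.6 CPM against 459, 370 and 500 CPM. Ghrhr, the receptor of growth hormone-releasing hormone, gave 1, 0 and 1 UMI, and Gh-dominant cells had 274, 258 and 197 CPM. Dlk1 was at 360, 144 and 1280 CPM against 4263, 3657 and 4756 CPM, with library 6 above the other libraries. Fkbp5, a co-chaperone induced by glucocorticoids, was at 48.5, 71.9 and 58.8 CPM against 284, 187 and 256 CPM, on 12, 1 and 13 UMIs.

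Of the 9 genes of peptide processing, all gave UMIs in Pomc-high cells of libraries 4 and 6, and 2, Pcsk2 among them, gave none in library 5. Of 6 processing genes compared with the other cells, none was past the fold in each of the 3 libraries, and the list medians of the log2 ratio were 0.80, 0.52 and 0.58, against -0.03, -0.21 and -0.11 over all genes compared. Summed, the list stood at 9073, 7265 and 11187 CPM in Pomc-high cells and at 4339, 3845 and 4474 CPM in the other cells. Prl-high cells, in which prolactin took at least 10% of UMIs, had 9804, 10434 and 8475 CPM, so the level was not particular to Pomc-high cells. Pcsk1n, an inhibitor of convertase 1/3, was at 3681, 3021 and 2424 CPM in Pomc-high cells and at 1956, 1548 and 1814 CPM in the other cells. Scg5, the chaperone of convertase 2, was at 930, 1151 and 764 CPM against 533, 483 and 554 CPM. Carboxypeptidase E, Cpe, was at 845, 2086 and 927 CPM against 654, 812 and 568 CPM. Pam, the enzyme that amidates peptide ends, was at 1327, 503 and 2889 CPM against 757, 528 and 1113 CPM, higher in libraries 4 and 6 and, on 7 UMIs, within counting error of the other cells in library 5. Pcsk1, convertase 1/3 itself, was barely detected, at 28.3, 144 and 40.7 CPM on 7, 2 and 9 UMIs. Gnas, the stimulatory G protein subunit through which CRH receptors signal, was at 6043, 7624 and 6041 CPM against 3178, 2195 and 3545 CPM. Genes of protein folding in the endoplasmic reticulum gave 0 of 19 past the fold in either direction against the other cells, with medians of 0.02, 0.33 and 0.05, and with 1.02% of all 3524 genes higher and 5.70% lower this count is near the background.

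Pcsk2 was found in 55.9% of Pomc-high cells of library 4 (50.7 to 61.0%), in 0 of 18 of library 5, which by the limit of 3 counts allows a share of up to 16.7%, and in 71.5% of library 6 (66.1 to 76.5%). As background, the share in microglia-rich cells, which should lack the gene, was 1.27%, 1.31% and 6.06%, at median depths without hormone genes of 552, 413 and 709 UMIs against 590.5, 719 and 620 UMIs in the Pomc-high cells. Thinned to 500 UMIs per cell, with 121, 4 and 68 shallower cells left out, the shares were 47.8%, 0% and 63.5%. Within libraries 4 and 6 the share was higher in cells with more Pomc. In library 4 it was 10.1% in cells with 5 to 10% Pomc, 43.6% from 10 to 20%, 61.3% from 20 to 30% and 72.7% above 30%. In library 6 it was 9.52%, 28.8%, 73.6% and 91.3% over the same ranges, and the median depth without hormone genes went from 775 to 566 UMIs over those ranges. The 37 cells of library 5 with at least 5% Pomc gave no Pcsk2 UMI in any range. Over the same ranges Oacyl went from 2.53% to 33.3% of cells in library 4 and from 6.35% to 34.9% in library 6. Tbx19 stayed between 8.86% and 10.7% in library 4 and went from 15.9% to 3.36% in library 6.

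**Figure D2:**
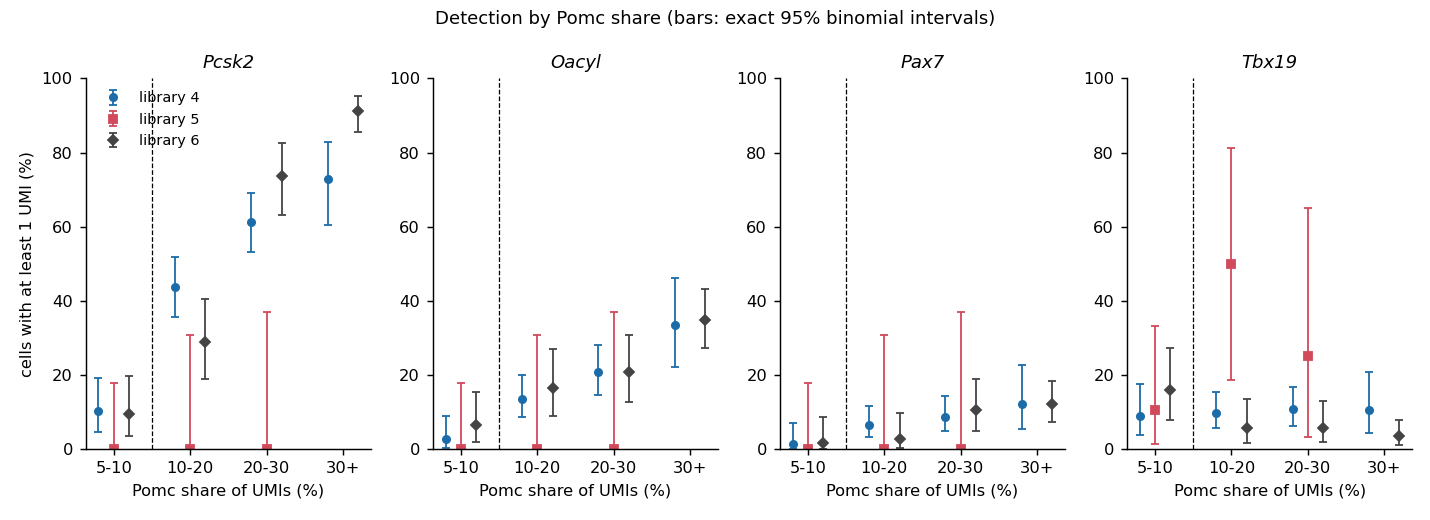
Share of cells with at least 1 UMI of each gene by the share of Pomc in the cell, in libraries 4, 5 and 6, with exact binomial intervals as bars. Pcsk2 runs from 10.1% to 72.7% in library 4 and from 9.52% to 91.3% in library 6, and stays at 0% in library 5.

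Melanotroph genes and the corticotroph genes Crhr1, Avpr1b and Tnnt1 were seldom found in the same cell. In library 4, 233 cells held a UMI of Pcsk2, Oacyl or Pax7, and 0 of them held one of Crhr1, Avpr1b or Tnnt1, whereas 11.5% of the remaining Pomc-high cells did. In library 6, 228 cells held a melanotroph gene and 1 of them a UMI of those corticotroph genes (0.439%), against 16.0% of the remaining cells. Nr3c1 and Pcsk1 of the corticotroph list were not part of this count. Nr3c1 was found in 1.92% of cells with a Pcsk2 UMI and 7.32% without in library 4, and in 0.905% and 13.6% in library 6. For Pcsk1 the shares were 0.962% and 3.05% in library 4 but 2.71% and 3.41%, nearly alike, in library 6. With so few UMIs of the corticotroph genes this is a description, and the median depth of cells without Pcsk2 was higher, at 625.5 against 565.5 UMIs in library 4 and 739.5 against 577 UMIs in library 6.

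Clustering of the 699 cells without Gh, Prl and Pomc gave 9 clusters. In 8 of them, with 542 cells, Pcsk2, Oacyl and Pax7 were among the 10 leading genes against other cells, and they are called melanotroph-like, with 301, 4 and 237 cells in libraries 4, 5 and 6. The remaining cluster, with 157 cells (71, 14 and 72), had 3 corticotroph markers and 1 melanotroph marker past the fold and is called corticotroph-like, although its leading genes were Nmb, Obsl1, Emd, Cidea, Chrne and Srxn1 and no fixed marker stood among the first 10. At a coarser resolution there were 3 clusters, all 157 of these cells stayed corticotroph-like and 691 of 699 cells kept their name. The 4 melanotroph-like cells of library 5 gave no UMI of Pcsk2, Oacyl or Pax7, so their name goes against the genes and library 5 is left out of what follows unless given. Corticotroph-like cells numbered 7.73, 2.12 and 4.57 per 100 Gh-dominant cells in libraries 4, 5 and 6, and melanotroph-like cells 32.8, 0.606 and 15.1. Both kinds were thus scarce in library 5, where the 4 cells counted as melanotroph-like have a name that goes against their genes. Pomc took a median of 22.3% and 32.3% of UMIs in melanotroph-like cells of libraries 4 and 6, and 17.5%, 19.5% and 15.8% in corticotroph-like cells of libraries 4, 5 and 6.

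Because the same genes formed the clusters, the levels that set them apart are a description and carry no test. Between corticotroph-like and melanotroph-like cells, 174 of 3489 genes were higher in the former in both libraries 4 and 6 (4.99%) and 228 lower (6.53%). Pcsk2 was at 2880 and 5547 CPM in melanotroph-like cells and at 14.6, 0 and 139 CPM in the corticotroph-like cells of libraries 4, 5 and 6. All 4 melanotroph genes compared were lower, a count that the naming of the clusters by this list had fixed. Pax7 was at 207 and 211 CPM in melanotroph-like cells and gave no UMI in corticotroph-like cells. The splicing factor Rbfox3 was at 67.2 and 76.7 CPM against 0. Etv1, an ETS factor outside the lists, was at 577 and 550 CPM against 58.2 and 61.9 CPM. Chga was at 1070 and 1412 CPM against 233 and 201 CPM, 4.60-fold and 7.03-fold higher in melanotroph-like cells. Pam was at 1557 and 3502 CPM against 728 and 1407 CPM. Syt1, the calcium sensor of vesicle release, was at 740 and 556 CPM against 189 and 92.8 CPM, and Cplx2, complexin, at 370 and 262 CPM against 58.2 and 77.3 CPM.

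On the corticotroph-like side, 3 of 4 corticotroph genes compared were higher and 0 lower, beside 4.99% and 6.53% of all 3489 genes. The cluster was named by markers of this list, and those 3 genes were under 50 CPM in melanotroph-like cells. The naming and the minimum of 50 CPM thus fixed the count, which carries no test. Nr3c1 was at 160 and 186 CPM in libraries 4 and 6 against 33.6 and 12.8 CPM in melanotroph-like cells, a ratio of 4.76 (1.61 to 15.7) and 14.5 (3.23 to 134). Nr3c1 is not particular to these cells, since its level over all Pomc-high cells was close to that of the other cells. The whole corticotroph list summed to 422 and 433 CPM in corticotroph-like cells and 61.6 and 63.9 CPM in melanotroph-like cells. Gh-dominant cells lay between, at 213 and 180 CPM. Crhr1 rested on 6 and 2 UMIs against 1 and 1, and Tnnt1 on 5 and 9 UMIs against 1 and 0. Neurod1, the helix-loop-helix factor of corticotrophs, was at 131 and 30.9 CPM, on 9 and 2 UMIs, against 1 and 0 UMIs. Tbx19 did not separate the cells beyond counting error, with ratios of 1.15 (0.533 to 2.36) and 1.61 (0.473 to 5.07). Nnat, an imprinted gene of neuroendocrine cells, was at 10798, 10074 and 10020 CPM in the corticotroph-like cells of libraries 4, 5 and 6 and at 992 and 1227 CPM in melanotroph-like cells of libraries 4 and 6. Gh-dominant cells, at 5957, 6174 and 5037 CPM in libraries 4, 5 and 6, lay between both kinds. Nmb was at 597, 1694 and 649 CPM against 11.2 and 51.1 CPM. Srxn1 was at 1091, 1070 and 1299 CPM against 56.0 and 12.8 CPM, and Emd at 1644, 1159 and 1778 CPM against 89.6 and 57.5 CPM. In library 5 the level of Nnat thus lay near that of the same group in libraries 4 and 6, while Nmb stood at a higher and Emd at a lower value. There, 83.3% of 12 Srxn1 UMIs lay in the highest 3 of 14 cells. Nmb was concentrated in every library, with 56.1%, 73.7% and 71.4% of its UMIs in the highest 3 corticotroph-like cells, and without those cells it was at 278, 570 and 200.3 CPM.

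**Figure D3:**
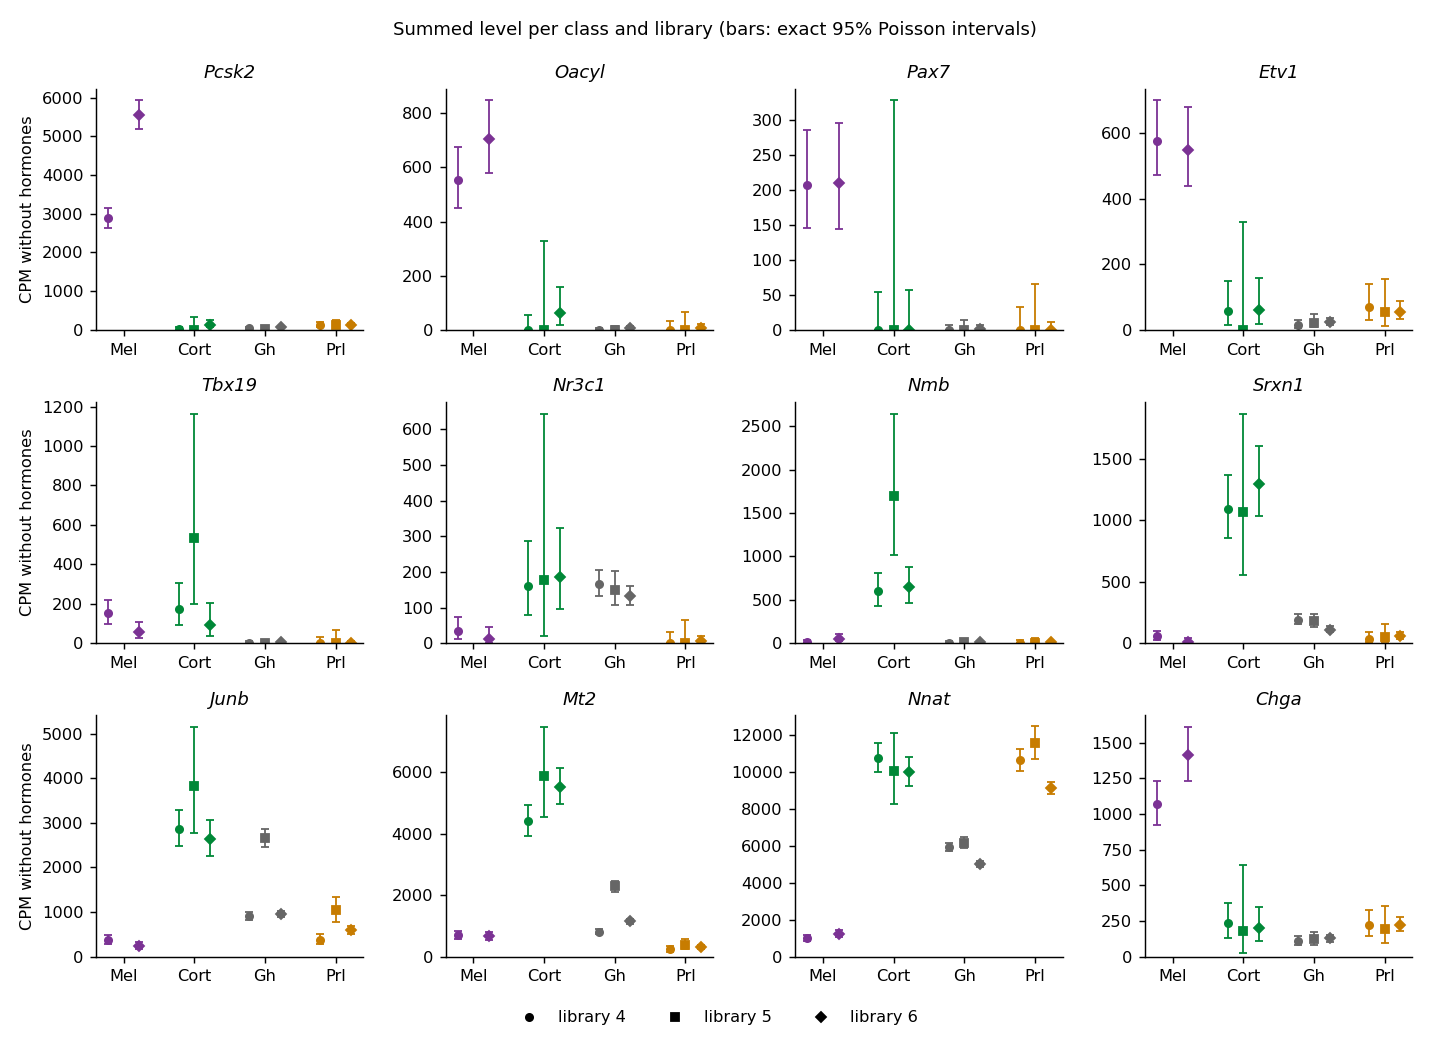
Summed levels of 12 genes, in CPM without Gh, Prl and Pomc in the total, in melanotroph-like (Mel), corticotroph-like (Cort), Gh-dominant (Gh) and Prl-high (Prl) cells of libraries 4, 5 and 6, with exact 95% Poisson intervals as bars. Pcsk2 is at 2880 and 5547 CPM in melanotroph-like cells and at most 139 CPM in corticotroph-like cells, while Srxn1 is between 1070 and 1299 CPM in corticotroph-like cells and at 56.0 and 12.8 CPM in melanotroph-like cells.

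Of the list of glucocorticoid targets, 6 of 10 genes compared were higher in corticotroph-like cells in both libraries and 0 lower, beside 4.99% and 6.53% of all 3489 genes, with medians of 1.14 and 1.70 on the log2 scale against 0.04 and 0.04 over all genes compared. Those 6 were the metallothioneins Mt1 and Mt2, the kinase feedback genes Errfi1 and Dusp1, the cell cycle inhibitor Cdkn1a and Fkbp5. The clusters were formed from these same data, and Fkbp5 passed the minimum of 50 CPM only through the corticotroph-like cells. The count and the medians are thus a description and carry no test. Mt2 was at 4424 and 5536 CPM against 689 and 665 CPM, 6.42-fold (5.19 to 7.98) and 8.33-fold (6.68 to 10.5) higher, and Mt1 at 7014 and 10840 CPM against 2684 and 2090 CPM. Metallothioneins also respond to metals and stress. Fkbp5 was at 87.3 and 124 CPM against 33.6 and 32.0 CPM, on 5 to 8 UMIs in each, and both kinds of cells lay below the 284 and 256 CPM of Gh-dominant cells. Tsc22d3, another glucocorticoid target, was at 43.7 and 61.9 CPM against 44.8 and 63.9 CPM.
Of the immediate early and stress genes, 5 of 11 were higher in corticotroph-like cells and 0 lower, beside the same 4.99% and 6.53% of all genes, with medians of 0.88 and 1.79. This count too is a description of clusters formed from the same data and carries no test. Junb was at 2867 and 2644 CPM against 375 and 230 CPM. Crem was at 655 and 789 CPM against 129 and 141 CPM. Fos was at 364 and 1268 CPM against 157 and 479 CPM, so its level differed more between libraries 4 and 6 within each kind of cell than Junb did.

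**Figure D4:**
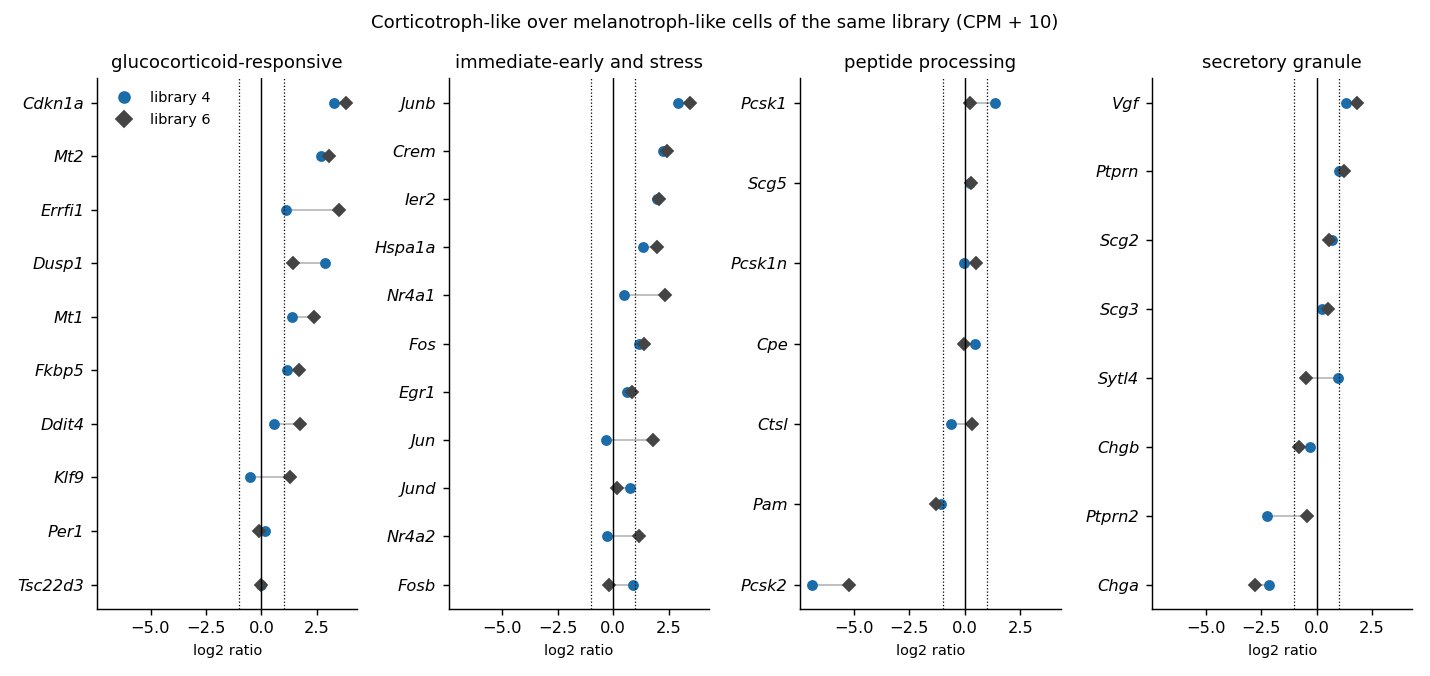
Log2 ratio of corticotroph-like to melanotroph-like cells, after adding 10 CPM to both, for each compared gene of 4 fixed lists in library 4 (circles) and library 6 (diamonds), with dotted lines at 2-fold in each direction. Of 10 glucocorticoid-responsive genes 6 lie beyond the right-hand line in both libraries, of 11 immediate early genes 5, of 7 processing genes 0 and of 8 granule genes 1 (Vgf).

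A split that does not use the clusters was added after seeing the data: Pomc-high cells without a Pcsk2 UMI against those with one, with genes picked in library 4 and then read in library 6. Over both libraries, 131 of 3400 genes were higher without Pcsk2 in each (3.85%) and 117 lower (3.44%). Of the 20 genes with the highest ratio in library 4, 18 had the same direction in library 6 and 15 were past 2-fold there, where 11.0% of all 3837 genes were past 2-fold in that direction. Their median log2 ratio was 3.25 in library 4 and 2.38 in library 6. Nmb had log2 ratios of 5.21 and 2.99, Srxn1 of 4.06 and 4.43, Emd of 3.82 and 4.06 and Nnat of 3.30 and 3.05. Cd74, a gene of antigen-presenting cells, went from 3.26 to -3.09. Of the 20 genes picked on the other side, 12 had the same direction, Ankrd54 and Nrsn1 differed by less than 0.01 on the log2 scale, at 27.1 CPM on either side, and 5 were past 2-fold, against 14.2% of all genes, with medians of -2.86 and -0.42. Those rested on 7 to 22 UMIs in the cells of library 4 with Pcsk2, and a cell in which Pcsk2 was missed by chance counts as one without it.

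**Figure D5:**
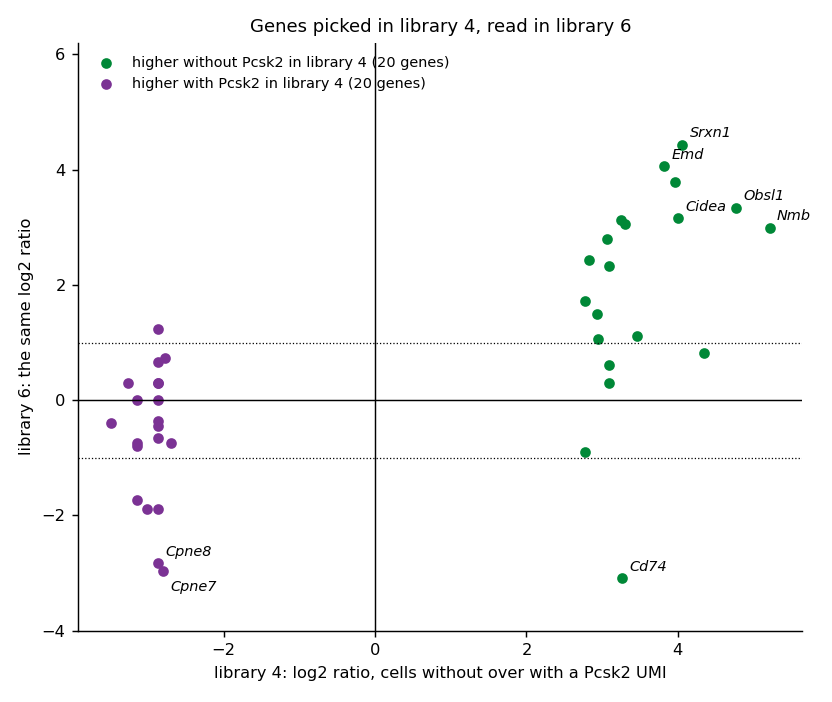
Log2 ratio of Pomc-high cells without to those with a Pcsk2 UMI for 40 genes picked in library 4, with the value in library 4 on the horizontal and in library 6 on the vertical axis. Of the 20 picked as higher without Pcsk2, 18 are above 0 in library 6, and of the 20 picked as higher with it, 12 are below 0 and 2 lie at it.

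Most granule and vesicle genes were past the fold in neither direction, and their counts stand beside 4.99% of all 3489 genes higher and 6.53% lower. Of 8 granule genes compared between corticotroph-like and melanotroph-like cells, Vgf was higher, on 2 and 6 UMIs against 1 and 3, Chga was lower, and 6 were past the fold in neither direction in both libraries. Scg2 was at 1557 and 1933 CPM against 952 and 1323 CPM, and Ptprn, a protein of the granule membrane, at 568 and 742 CPM against 280 and 313 CPM. Summed, the granule list was at 3220, 3740 and 4115 CPM in Pomc-high cells of libraries 4, 5 and 6, below the 8968, 9399 and 8372 CPM of Prl-high cells. Of 9 genes of vesicle release, Syt1 and Cplx2 were lower and the other 7 passed in neither direction, with Snap25 at 335 and 247 CPM against 538 and 294 CPM. Of 19 genes of protein folding in the endoplasmic reticulum, only Sdf2l1 was past the fold in both libraries, at 43.7 and 30.9 CPM against 118 and 204 CPM, and Hspa5, the chaperone BiP, was at 335 and 433 CPM against 415 and 460 CPM.

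Markers of other cells were not absent from Pomc-high cells, and how far they were lower differed by list. Their part in the results was not tested. The 4 gonadotroph genes compared were all past the fold on the lower side against the other cells, with medians of -5.29, -4.76 and -4.04, as were the 4 hemoglobin genes, beside 5.70% of all 3524 genes. Fewer passed on that side among 6 microglia genes (2), 5 astrocyte genes (1), 3 endothelial genes (1) and 3 mural or fibroblast genes (1). Markers that are near 0 in Pomc-high cells, such as Fshb, passed the minimum of 50 CPM only through the other cells, so these counts carry no test. Against Gh-dominant cells, 0 of 3 microglia and 0 of 3 astrocyte genes passed in either direction, beside 1.67% higher and 5.58% lower of 3601. The microglia list summed to 469, 216 and 118 CPM in Pomc-high cells and to 338, 501 and 157 CPM in Gh-dominant cells. In corticotroph-like cells of library 6, Cga, the hormone alpha subunit of gonadotrophs and thyrotrophs, was at 3216 CPM, and 178 of its 208 UMIs came from 1 cell. In Pomc-high cells of library 4, 114 of 144 UMIs of the hemoglobin gene Hbb-bs came from 1 cell. The marker counts of clusters given next are against cells outside the Pomc-high group. Among the melanotroph-like clusters, 1 was set apart from the other Pomc-high cells by microglia genes such as C1qc and Cd74 (51 cells, 8 of 10 microglia markers past the fold). Astrocyte genes such as Slc1a2 set 1 apart (50 cells, 3 of 6 astrocyte markers), and the hemoglobin genes Hba-a1, Hba-a2 and Hbb-bs 1 more (85 cells, 0 of 5 markers of red blood cells). In melanotroph-like cells of library 4, 66 of 68 Hba-a1 UMIs came from 1 cell, so these genes do not describe most of those cells. Another, of 98 cells, was led by the division genes Top2a and Cenpf, but the 10 cell cycle genes gave only 27, 1 and 18 UMIs in the Pomc-high cells of libraries 4, 5 and 6, and Top2a came from 3 cells of library 4 and 1 of library 6. Dlk1, which is high in Gh-dominant cells, was spread over 51 of 72 corticotroph-like cells of library 6, at 3325 CPM, and over 16 of 71 in library 4, at 1048 CPM. Gh gave 8.34, 6.17 and 27.1 UMIs per Pomc-high cell in libraries 4, 5 and 6, near the 6.88, 4.84 and 18.2 of Prl-high cells, with library 6 highest in both.

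Between libraries 4 and 6, melanotroph-like cells differed by 2-fold in 51 genes higher in library 6 (1.79% of 2843) and 136 lower (4.78%), and corticotroph-like cells in 220 higher (7.80% of 2819) and 379 lower (13.4%). Gh-dominant cells, which are more numerous, differed in 6 higher (0.187% of 3201) and 19 lower (0.594%). The share past the fold was thus greater where fewer cells were summed, and the part of counting error in it was not tested. In melanotroph-like cells, Pcsk2 was at 2880 CPM in library 4 and 5547 CPM in library 6, Pam at 1557 and 3502 CPM, and Dlk1 at 95.2 and 435 CPM, with 31 of 68 Dlk1 UMIs of library 6 in 1 cell. With 1 library each, and with region and sleep group not given here, these differences belong to the libraries.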

How the data were processed

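Tissue was dissociated with papain, cleared with myelin removal beads and captured with the 10x Chromium Version 2 kit, which tags transcript 3′ ends. Per the submitters' processing notes, Cell Ranger 2.2.0, GRCm38 and R 3.5.3 were used; the annotation release is not given in the sources used here. The authors deposited 1 table of UMI counts, whole numbers without normalization, for 18634 genes and 29571 cells, and 0 columns belonged to other samples. Libraries were numbered by the order of their codes, which the labels do not explain, so no sleep groups were compared and no p-values were computed. Each library came from 3 pooled mice, with no replicate library.

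Counts were summed per library and class and scaled to CPM without Gh, Prl and Pomc, with a pseudocount of 10 CPM, a minimum of 50 CPM on either side and a limit of 2-fold in each library. Gh-dominant cells had Gh at 50% or more with Pomc and Prl under 10%, Prl-high cells had Prl at 10% or more, and microglia-rich cells at least 5 UMIs of microglia markers. Intervals are exact Poisson or Clopper-Pearson at 95%, and a fold against a class at 0 uses 3 counts. Clusters used 2000 variable genes, 13 principal components, 20 neighbours and Leiden resolution 1, and needed 3 markers at 2-fold for a name. Named genes were those of the fixed lists, the 25 highest and 10 lowest against the other cells and the 10 highest and lowest against Gh-dominant cells, ranked by the least extreme library; Gnas and genes named for clusters, single cells or the split by Pcsk2, such as Nnat, Etv1, Chrne, Cd74 and Cenpf, were chosen after seeing their values. Members and lists were chosen with earlier results of these data known. Prdm12, on the list of arcuate neurons, was not found among the gene names of the table.

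Scrublet, run through scanpy 1.11.5, called 0, 6 and 0 cells of libraries 4, 5 and 6 and no Pomc-high cell; at that rate it has not worked, and doublets may remain. The comparison was tested on simulated data with 200 genes changed 4-fold: of 3428 genes compared, 87% of those raised and 70% of those lowered were past the fold in each of 3 libraries, 100% and 90% in libraries 4 and 6, and 0% of unchanged genes. The simulated sums held counting error only, without differences between cells. The 0% therefore does not cover genes whose UMIs lie in a few cells. Python 3.11.15, numpy 2.4.6, scipy 1.17.1, igraph 0.11.9 and matplotlib 3.10.9 were used. Alternatives were other limits on Pomc, Gh and UMIs per cell, no called doublets, a pseudocount of 1 CPM, a minimum of 10 CPM, other totals, free RNA subtracted, thinning to 500 UMIs, resolution 0.5 and leaving out each library.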

Additional observations from a re-analysis of the deposited data

Results flagged for a closer look

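Pomc gave UMIs outside libraries 4 to 6, in libraries that the comparisons did not use, and these are above the limit of 3 counts that a count of 0 allows. Library 1 held 17 Pomc UMIs, library 2 held 19, library 3 held 38, library 7 held 167, library 8 held 51 and library 9 held 111. They were spread over 17, 19, 34, 143, 49 and 102 cells, close to 1 UMI per cell, and the highest share of Pomc in any of those cells was 0.437%, in library 3. In libraries 4, 5 and 6, by comparison, Pomc gave 88700, 5528 and 116647 UMIs. The source of the UMIs in the other libraries was not tested.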

How the results depend on the processing

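Of 83 alternative values, 61 stayed within their limit, which is 1.5 times for a count and the counting interval for a share, and 22 moved. Of the former, 9 left out called doublets and test nothing, since no Pomc-high cell was called. With Pomc at 20% or more, 216 cells remained in library 4 and 8 in library 5, 21 genes were higher than in the other cells and 73.9% of cells had Pcsk2. With Pomc at 5% or more, library 5 gave 37 cells and 51.5% of cells had Pcsk2. Requiring 1000 UMIs left 96, 8 and 126 cells in libraries 4, 5 and 6. Subtracting the level in microglia-rich cells as free RNA gave 128 genes higher than in the other cells and 167 higher than in Gh-dominant cells, and a minimum of 10 CPM gave 593 and 413 lower genes. Thinning gave 54.0% of cells with Pcsk2. Leaving out each library in turn gave 41 to 80 genes higher and 233 to 339 lower than in the other cells, 90 to 156 higher and 278 to 359 lower than in Gh-dominant cells, and 53.3% to 67.6% of cells with Pcsk2, with the share of cells with Crhr1 from 0.917% to 1.79%. Fewer libraries to pass make a count larger by construction, and the causes of the other shifts were not tested. Resolution 0.5 gave 3 clusters in place of 9. No paired analysis was possible because the library codes carry no replicate numbers and no test was run. The 18 cells of library 5 limit every value there, since 1 UMI stands for 71.9 CPM.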
